A study of Mus musculus with 24 samples.

Results

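Adipogenic regulators and lipid droplet genes were followed in endothelial and stromal cells of mouse bone marrow. The set held 7 of the 23879 genes in the deposited tables, chosen by symbol: the transcription factor genes Pparg, Cebpa and Cebpb, the lipid droplet coat genes Plin1 and Plin4, the adipsin gene Cfd, and Lpl, which encodes lipoprotein lipase. They were chosen because their levels differed between the replicates of cultured stroma, so their values in that group are given as a description with no test. All 24 libraries listed all 7 genes.

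Fat cells arise from mesenchymal precursors through a cascade in which C/EBP beta acts early and induces PPAR gamma and C/EBP alpha, which then maintain each other and switch on the genes of the mature fat cell. Perilipin 1 coats the large lipid droplet and controls access of lipases to it, perilipin 4 coats small droplets, adipsin is a secreted protease of the alternative complement pathway, and lipoprotein lipase frees fatty acids from lipoproteins in the blood. In bone marrow, stromal cells that express Lepr, Cxcl12 and Adipoq can become fat cells, while capillary endothelium in several tissues uses PPAR gamma to take up fatty acids and carries lipoprotein lipase made by neighbouring cells.

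All cells came from C57BL/6J mice. Each cell type was profiled in 4 settings with 3 libraries each: a first culture, a co-culture series without added blood cells (called alone), the same series with hematopoietic stem and progenitor cells (called with HSPC), and directly in vivo. Titles of the 18 libraries from cells grown outside the animal carry the name Akt1, a kinase gene of the insulin pathway, and the labels do not explain it, whereas the 6 in vivo titles lack it. Any difference between in vivo and the other settings therefore cannot be told apart from what that name stands for, or from the way the cells were isolated. No label ties the 3 libraries of a group to different animals or cultures, so the p-values reflect variation among libraries alone, possibly technical.

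Levels were deposited as FPKM, a read density that corrects for transcript length and sequencing depth, and the depth behind them is unknown. Libraries totalled 1421450 to 1808590 FPKM and listed 9128 to 10756 genes at 0. Within a group, libraries correlated across genes at 0.9947 or above in the 6 groups of the co-culture series and in vivo, at 0.962 or above in cultured endothelium, and at 0.954, 0.958 and 0.993 in cultured stroma, where replicate 1 stood apart. Cell type markers matched the labels in part: 8 endothelial markers summed to 7567 to 17809.8 FPKM in endothelial libraries and to at most 369 in stromal ones, and 7 mesenchymal markers summed to at least 3494 in stroma and at most 251 in endothelium. Lepr, a defining gene of the stromal cells that give rise to marrow fat, was listed at 0 in stroma alone and in cultured stroma replicates 2 and 3, at 15.3 FPKM in replicate 1, and at 2469.97 to 2789 in stroma in vivo. Other markers of these cells differed from Lepr: of 7 with Lepr, 6 reached an FPKM of 1 in all 3 libraries of stroma alone. In cultured stroma 3 of the 7 were at least 2-fold higher and 1 lower in replicate 2 than in replicate 1, with Cxcl12 at 152, 925 and 837 in replicates 1 to 3. Xist was at 1006 FPKM in cultured stroma replicate 3 and at 1107 and 1249.8 in cultured endothelium replicates 2 and 3, and at 2.35 or less in the other 21 libraries.

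The reference promoters of 5 starts are shown, those with a match to any of the motifs searched. The starts of Cebpb, Plin1 and Cfd held no match and are not shown. The deposited values give a single level for all Pparg transcripts. RefSeq (GRCm38.p6, whereas the deposited values were made on mm9) lists 3 starts for Pparg, and the table held 6 of the 7 genes, without Lpl. Each line gives the 250 bases before the start, 5′ to 3′ on the strand of the gene, and capitals mark motif matches on either strand. Pparg start 1 lies at chr6:115360894-115361143 (plus strand), start 2 at chr6:115362099-115362348 (plus), start 3, from which the fat cell isoform is read, at chr6:115421816-115422065 (plus), Cebpa at chr7:35119043-35119292 (plus) and Plin4 at chr17:56109783-56110032 (minus).
Pparg start 1: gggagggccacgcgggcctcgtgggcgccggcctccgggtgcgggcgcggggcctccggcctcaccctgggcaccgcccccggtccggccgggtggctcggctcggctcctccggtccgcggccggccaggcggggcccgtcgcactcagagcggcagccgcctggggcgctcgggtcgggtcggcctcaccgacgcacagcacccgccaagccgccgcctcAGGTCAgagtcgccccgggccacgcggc
Pparg start 2: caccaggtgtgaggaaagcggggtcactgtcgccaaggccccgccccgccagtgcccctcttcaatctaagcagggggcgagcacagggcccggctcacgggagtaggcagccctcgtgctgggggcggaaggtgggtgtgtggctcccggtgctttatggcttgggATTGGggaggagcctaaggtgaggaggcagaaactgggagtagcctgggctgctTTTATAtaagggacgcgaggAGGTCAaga
Pparg start 3: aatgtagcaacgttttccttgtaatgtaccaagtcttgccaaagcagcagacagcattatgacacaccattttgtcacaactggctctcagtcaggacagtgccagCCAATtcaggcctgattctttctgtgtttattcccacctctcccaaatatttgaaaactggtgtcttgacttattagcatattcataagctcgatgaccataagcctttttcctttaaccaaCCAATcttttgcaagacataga
Cebpa: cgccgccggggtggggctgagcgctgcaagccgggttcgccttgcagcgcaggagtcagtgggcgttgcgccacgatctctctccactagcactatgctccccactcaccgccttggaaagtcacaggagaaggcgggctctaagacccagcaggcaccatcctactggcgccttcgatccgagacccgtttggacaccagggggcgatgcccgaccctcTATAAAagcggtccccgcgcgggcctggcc
Plin4: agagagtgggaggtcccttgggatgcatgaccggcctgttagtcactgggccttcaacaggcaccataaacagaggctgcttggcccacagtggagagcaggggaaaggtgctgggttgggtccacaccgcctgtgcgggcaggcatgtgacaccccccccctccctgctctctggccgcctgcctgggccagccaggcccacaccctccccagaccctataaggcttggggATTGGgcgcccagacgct

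Motifs searched were the nuclear receptor core AGGTCA, the DR1 element (AGGTCA repeated after 1 base, so it contains AGGTCA), the C/EBP palindrome TTGCGCAA, its looser form TTGCGNAA (which contains the palindrome), CCAAT and TATAAA. Pparg start 1 held AGGTCA at positions -28 to -23 from the start and start 2 at -9 to -4, a motif found in 14.0% of all 32851 promoters of that length. Pparg start 3 held CCAAT at -144 to -140 and at -22 to -18, and its reverse complement stood at -83 to -79 before Pparg start 2 and at -18 to -14 before Plin4, against 33.8% of all promoters. Cebpa held TATAAA at -30 to -25 and Pparg start 2 its reverse complement at -29 to -24, a motif that 12.4% of promoters hold. The starts of Pparg also differed in base composition, with 82.4% G and C before start 1, 63.6% before start 2 and 40.8% before start 3. None of these 6 motifs was found before Cebpb, Plin1 or Cfd, which says only that these letters are not in those windows. Since reads of all Pparg starts enter 1 FPKM value, the levels below do not tell the isoforms apart.

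Averaged over the 7 genes, log2(FPKM + 1) was highest in cultured stroma replicates 2 and 3, at 7.49 and 6.83, against 3.59 in replicate 1. In vivo it ran from 5.62 to 5.74 in endothelium and from 5.50 to 5.70 in stroma. The remaining groups were lower, with 2.75 to 2.91 in stroma with HSPC, 2.31 to 2.34 in stroma alone, 1.85 to 1.94 in endothelium with HSPC, 1.36 to 1.5 in endothelium alone and 1.12 to 2.37 in cultured endothelium. Similar averages in vivo came from different genes in the 2 cell types, as the values below show.

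**Figure D1:**
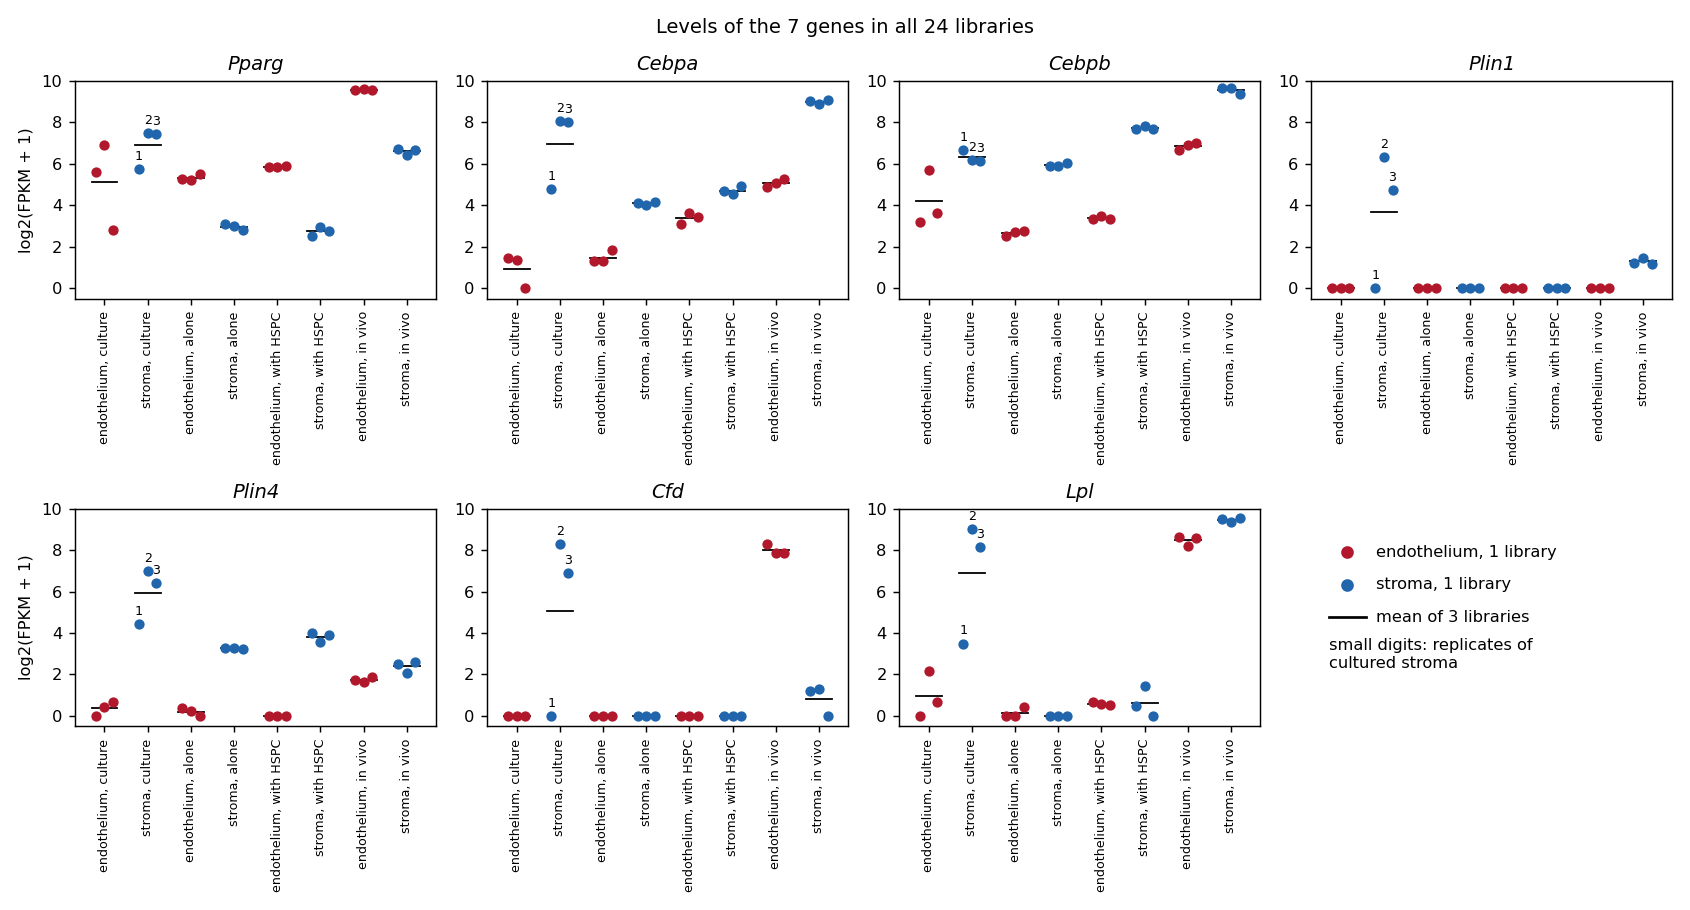
Levels of the 7 genes as log2(FPKM + 1) on the vertical axis in the 8 groups on the horizontal axis; each point is 1 library, each line the mean of 3, and small digits number the replicates of cultured stroma. Replicates 2 and 3 of cultured stroma lie above replicate 1 for all genes but Cebpb, and Pparg and Cfd are highest on average in endothelium in vivo, while Cebpa, Cebpb and Lpl are highest in stroma in vivo.

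In cultured stroma, replicates 2 and 3 carried the transcripts of the mature fat cell at levels that replicate 1 did not reach. Pparg, the master regulator of fat cell formation, read 53.3, 178 and 175 FPKM in replicates 1 to 3. Cebpa, its partner, read 26.5, 265 and 261. Both were alike in replicates 2 and 3 and lower in replicate 1, by log2 differences of 1.72 and 3.27 between replicates 2 and 1. Cebpb, the early regulator, went the other way, with 100.03, 72.6 and 70.35 FPKM.

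The droplet genes, adipsin and lipoprotein lipase were also higher in replicates 2 and 3. Plin1 was listed at 0 in replicate 1 and read 80.8 and 25.9 in replicates 2 and 3. Cfd was likewise listed at 0 in replicate 1, against 317 and 119. Lpl read 10.3, 522 and 279.8, and Plin4 read 20.4, 125 and 84.2. For these 4 genes replicate 2 was above replicate 3, whereas Pparg, Cebpa and Cebpb differed by -0.02, -0.02 and -0.04 on the log2 scale between replicates 3 and 2.

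Of the 7 genes, 6 were at least 2-fold higher on FPKM + 1 in replicate 2 than in replicate 1, where 12.0% of 13863 detected genes were higher and 11.4% lower. The same 6 of 7 were higher in replicate 3 than in replicate 1, against a background of 11.9% higher and 13.6% lower. Between replicates 3 and 2 none was higher and 2 were lower, against 1.60% and 3.35%. Because this difference chose the genes, nothing is read from these counts. The median log2 difference of the 7 genes from replicate 1 was 3.27 for replicate 2 and 3.25 for replicate 3, beside medians of -0.12 and -0.16 over all detected genes.

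Other genes of the pathway, listed with earlier results known, gave a mixed picture in the same libraries. Of 7 detected genes for products of the mature fat cell, 7 were at least 2-fold higher in replicate 2 than in replicate 1 and 6 in replicate 3. Adipoq, which encodes adiponectin, read 1.60, 260.4 and 134 FPKM in replicates 1 to 3, and Adig, Retn and Rbp4 were listed at 0 in replicate 1 and between 6.18 and 14.8 in the others. Uptake genes were divided: of 9 detected, 4 were at least 2-fold higher and 2 lower in replicate 2 than in replicate 1. In replicate 3, 3 were higher and 2 lower. Fabp4, the fatty acid carrier of fat cells, read 137, 1684 and 1064, and Cd36, a fatty acid transporter, 0, 114 and 52.2. Vldlr, at 79.0, 17.5 and 16.5, and Slc27a1, at 59.8, 17.1 and 18.1, were the lower ones.

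Among 12 other detected droplet and lipolysis genes, 4 were 2-fold higher in replicate 2 than in replicate 1, and 3 were higher and 1 lower in replicate 3. G0s2, an inhibitor of triglyceride lipase, read 19.9, 155 and 96.9 FPKM, Cidec, which fuses droplets, 0, 7.54 and 2.60, and Lipe, hormone-sensitive lipase, 9.05, 55.3 and 27.6. Plin2, the perilipin of most cell types, was highest in replicate 1, at 722 against 438 and 344.5. Lep, Cidea, Plin5 and Fitm1 were listed at 0 in all 3 replicates, as was the brown fat gene Ucp1.

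Regulators were also divided. Of 16 regulators that favour fat cell formation, 6 were 2-fold higher and 1 lower in replicate 2 than in replicate 1, including Ebf2 (16.8, 141 and 166 FPKM), Ebf1 (11.8, 107 and 122) and Nr1h3 (2.74, 24.3 and 22.6). Dlk1, a precursor gene that holds fat cell formation back, was higher as well, at 11.1, 199 and 363, while the inhibitor Wnt10b read 8.30 in replicate 1 and 0 in the others. Of 7 fatty acid synthesis genes, 1 was higher and 1 lower in replicate 2 than in replicate 1.

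Some markers of other cell types moved with the 7 genes in cultured stroma. Summed osteoblast markers came to 16212, 92092 and 90454 FPKM in replicates 1 to 3. Nearly all of that sum was Spp1, at 16154, 92019.5 and 90377. Of 5 detected osteoblast markers 4 were at least 2-fold higher and 0 lower in replicate 2 than in replicate 1, and likewise in replicate 3. Sp7 read 0, 12.1 and 13.4, whereas Runx2 read 58.2, 47.7 and 49.4, and Ibsp was listed at 0 throughout. The mesenchymal genes Col3a1 (252, 1514 and 1399.8) and Pdgfrb (58.2, 752 and 761) were higher in replicates 2 and 3. Macrophage markers were divided. Of 4 detected, 1 was at least 2-fold higher and 2 were lower in replicate 2 than in replicate 1, and likewise in replicate 3. Among them Cd68 read 57.5, 5.86 and 7.59, and Lyz2 3.78, 7.34 and 9.83. All 6 general blood cell markers and all 6 red cell markers were listed at 0. The part of these markers in the difference was not tested, and in bulk RNA fewer cells of a type and less RNA per cell cannot be told apart.

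**Figure D2:**
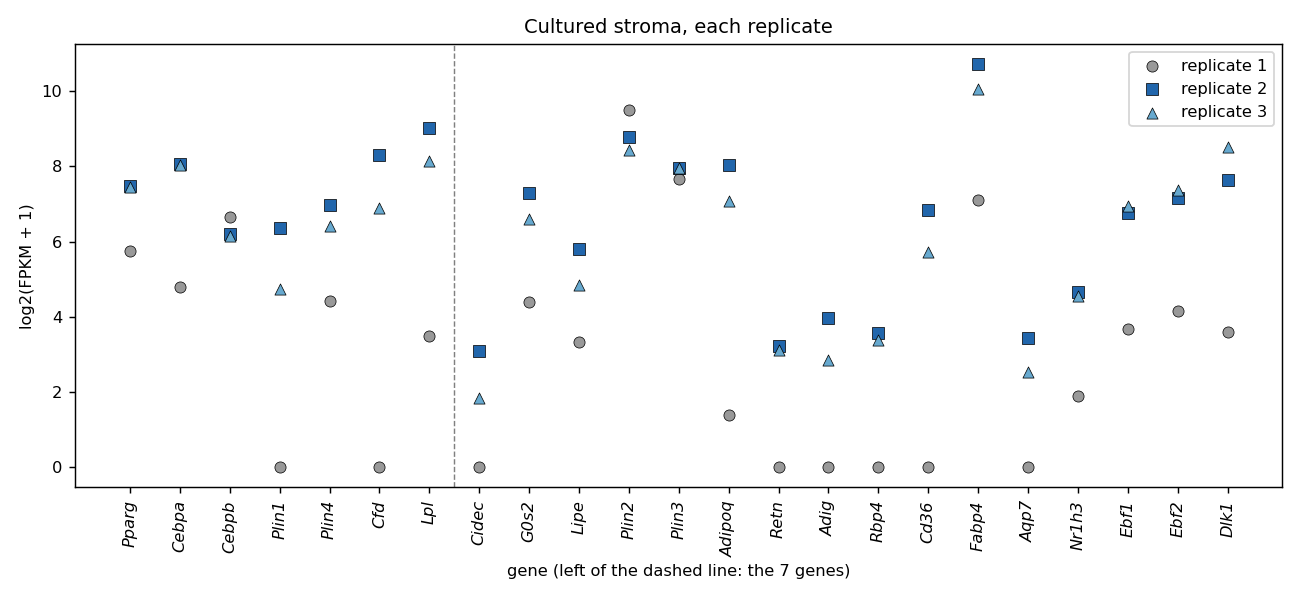
Level in each replicate of cultured stroma as log2(FPKM + 1) (vertical axis) for the 7 genes, left of the dashed line, and for other fat cell genes on the right (horizontal axis); each symbol is 1 library. Replicate 1 lies lowest for 6 of the 7 genes and highest for Cebpb and Plin2.

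Cultured endothelium carried little of the set apart from Pparg and Cebpb, and those varied widely. Pparg read 47.9, 121 and 6.03 FPKM in its 3 replicates and Cebpb 8.30, 50.7 and 11.5, with replicate 2 highest for both. Cebpa read 1.78, 1.59 and 0, Plin4 0, 0.35 and 0.61, and Lpl 0, 3.44 and 0.58. Plin1 and Cfd were listed at 0 in all 3.

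For the co-culture series the comparison asks how each cell type responded to added HSPC. In stroma, transcripts of the early regulator Cebpb rose most, Cebpa and Plin4 rose less, Pparg stayed low, and the genes of the mature fat cell, Plin1 and Cfd, were listed at 0 with and without HSPC. Cebpb read 58.3, 58.25 and 64.4 FPKM in stroma alone and 202, 225 and 205 with HSPC. The groups were far apart, with a log2 difference on FPKM + 1 of 1.79 ± 0.09 (SE; limma, adjusted p = 4.09e-10).

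Cebpa read 16.55, 15.0 and 16.7 FPKM alone and 24.5, 22.35 and 29.5 with HSPC. Its libraries did not overlap either, and it rose by 0.62 ± 0.16 (adjusted p = 0.00323). Plin4, the droplet coat, read 8.76, 8.79 and 8.29 alone and 15.2, 11.0 and 13.8 with HSPC. All 3 libraries with HSPC were higher, by 0.57 ± 0.14 (adjusted p = 0.00295).

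Pparg read 7.50, 7.02 and 6.01 FPKM alone and 4.78, 6.80 and 5.82 with HSPC. These ranges overlapped, and the difference of -0.21 ± 0.10 did not pass the test (adjusted p = 0.101). Without stroma alone replicate 3, or without stroma with HSPC replicate 2, it passed, at -0.29 and -0.32 (adjusted p = 0.0422 and 0.0172, in a range of 0.0172 to 0.935 over all alternatives).

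Lpl was listed at 0 in all 3 libraries of stroma alone and read 0.39, 1.75 and 0 FPKM with HSPC. It passed the test (adjusted p = 0.0428) although replicate 3 with HSPC was also listed at 0. That call rested on replicate 2 with HSPC: without it the adjusted p was 0.249, in a range of 0.00215 to 0.711 over the alternatives, and it was also lost when any 1 of the 3 libraries of stroma alone was left out.

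In stroma, 4 of the 7 genes were called higher and none lower with HSPC, where limma called 52.1% of 15174 tested genes, 21.8% higher and 30.4% lower. Their median difference was 0.57, beside -0.01 over all tested genes. With the 6 libraries of the first cultures, whose replicates vary more, added to the fit, Cebpb alone stayed called, and the same fit called 3591 genes in place of 7910.

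Other pathway genes in stroma are read against the 21.8% of all tested genes that were higher and the 30.4% that were lower with HSPC. Of 8 tested triglyceride synthesis genes 2 rose and none fell, led by Dgat2, the last enzyme of triglyceride synthesis, from 34.9 ± 3.04 to 254 ± 37.0 FPKM (SD, n = 3; 2.82 ± 0.14, limma adjusted p = 1.79e-10). Of 12 tested droplet genes 3 rose and 1 fell, with Hilpda, which blocks triglyceride lipase, at 70.25 ± 8.44 alone and 472.5 ± 136 with HSPC, and G0s2 at 4.74 ± 0.573 and 32.2 ± 10.2. Of 10 uptake genes 4 rose and 2 fell, with Vldlr, a lipoprotein receptor, rising by 1.85 ± 0.11 and Angptl4, an inhibitor of lipoprotein lipase, by 1.78 ± 0.16.

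Regulators did not move one way in stroma. Of 16 that favour fat cell formation 5 rose and 5 fell, with a median of -0.03. Klf4 rose by 2.72 ± 0.12, Klf15 by 1.52 ± 0.17 and Cebpd by 1.20 ± 0.22, while Ebf1 changed by -0.98 ± 0.19. Of 10 inhibitors 3 rose and 3 fell, with Dlk1 at 13.5 ± 1.27 FPKM alone and 58.2 ± 15.4 with HSPC, and Ddit3, which blocks C/EBP proteins, at 597 ± 34.6 and 1274 ± 64.1. Of 7 fatty acid synthesis genes 3 rose and 4 fell.

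All 3 regulator genes rose with HSPC in endothelium. Cebpa, at 1.46, 1.48 and 2.54 FPKM alone and 7.71, 11.4 and 9.79 with HSPC, rose by 1.92 ± 0.16 (limma adjusted p = 9.27e-08). Cebpb, at 4.80, 5.60 and 5.75 alone and 9.01, 10.3 and 9.01 with HSPC, rose by 0.71 ± 0.09 (adjusted p = 1.75e-05). Pparg, at 38.1, 36.6 and 44.0 alone and 56.8, 57.1 and 58.2 with HSPC, rose by 0.53 ± 0.10 (adjusted p = 0.000749). The libraries of these 3 regulators did not overlap between the groups.

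The droplet and secreted genes were at the bottom of the scale in endothelium. Lpl read 0, 0 and 0.36 FPKM alone and 0.58, 0.49 and 0.46 with HSPC, which did not overlap but did not pass the test (0.45 ± 0.25, adjusted p = 0.185). With a weight per group it passed (adjusted p = 0.0302, in a range of 0.0302 to 0.919 over the alternatives). Plin4 read 0.29, 0.19 and 0 alone and was listed at 0 with HSPC, which did not pass the test (adjusted p = 0.279). It was called lower at a pseudocount of 0.1 and under quantile normalization (adjusted p = 0.0183 and 0.0218, in a range of 0.0183 to 0.914). Plin1 and Cfd were listed at 0 in all 6 libraries.

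In endothelium 3 of 7 genes were called higher and none lower, against 39.5% of tested genes (23.6% higher and 15.9% lower). Their median difference was 0.45 beside 0.00 over all tested genes. Higher calls made up 59.7% of all calls as deposited and 48.7% after trimmed-mean scaling, with the 3 members called under both. In the fit that included the first cultures Cebpa alone stayed called, and 1852 genes were called in place of 5989.

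Endothelial genes for fatty acid handling divided with HSPC. Of 10 uptake genes 5 rose and 2 fell: Vldlr rose by 1.91 ± 0.11, and Gpihbp1, which anchors lipoprotein lipase to capillary endothelium, went from 233 ± 31.7 to 502 ± 27.2 FPKM (1.11 ± 0.08), while the carriers Fabp4 and Fabp5 changed by -1.11 ± 0.16 and -1.58 ± 0.16. Of 12 tested droplet genes 4 rose and 1 fell, with Hilpda at 50.2 ± 2.66 and 518 ± 55.6. Of 16 regulators 2 rose (Cebpd and Ebf2) and 6 fell, and of 7 fatty acid synthesis genes 4 rose and none fell.

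Markers of some blood cells, but not of all, were also higher with HSPC. The summed level of 8 granulocyte markers went from 48.1 to 54.8 FPKM in endothelium alone, where 7 of the 8 were at 0, to 1605 to 1790.4 with HSPC, and from 0 in stroma alone to 643 to 847 with HSPC. The 6 general blood cell markers summed to 1.84 to 3.42 in endothelium alone, 76.6 to 104 with HSPC, at most 0.88 in stroma alone and 17.0 to 24.8 with HSPC. Macrophage markers, 6 in all, summed to 193 to 211 in endothelium alone and 438 to 462 with HSPC, and to 15.8 to 19.6 in stroma alone and 39.4 to 47.6 with HSPC. Taken singly, of 5 tested macrophage markers 2 were called higher and 1 lower in stroma, and 5 higher in endothelium. Of 6 red cell markers 0 were called in stroma, and 1 was higher in endothelium. Cebpa and Cebpb are also active in granulocyte precursors, as background. The part of these markers in the rise of the regulators was not tested. Elane, a granulocyte gene that neighbours Cfd (2637 bases apart in GRCm38), reached 342 to 444 FPKM in endothelium with HSPC, and Cfd was listed at 0 there.

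**Figure D3:**
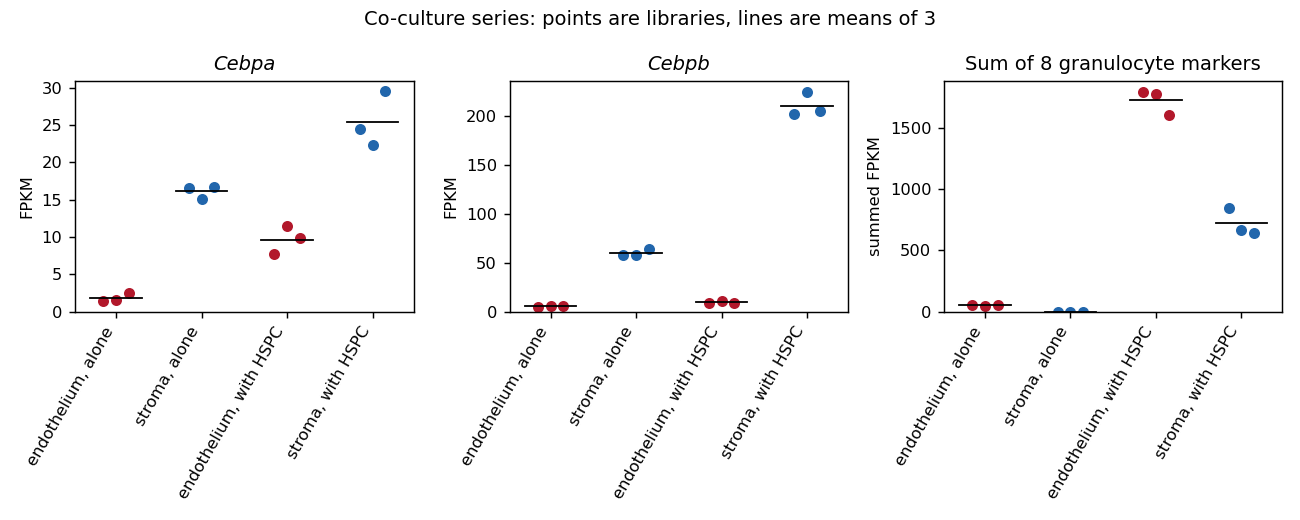
Cebpa, Cebpb and the summed level of 8 granulocyte markers in FPKM (vertical axes, from 0) in the 4 groups of the co-culture series (horizontal axis); points are libraries and lines means of 3. Cebpb lies at 58.25 to 64.4 in stroma alone and at 202 to 225 with HSPC, and in endothelium at 4.80 to 5.75 and 9.01 to 10.3. The marker sum with HSPC is 643 to 847 in stroma and 1605 to 1790.4 in endothelium. Its part in the levels of Cebpa and Cebpb was not tested.

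Whether HSPC acted differently on the 2 cell types was tested as the difference of their effects. Cebpb rose more in stroma, by 1.08 ± 0.13 (limma adjusted p = 8.50e-06), as did Plin4, by 0.77 ± 0.20 (adjusted p = 0.00461), a size that depends on the pseudocount because Plin4 was listed at 0 in endothelium with HSPC. Cebpa and Pparg had the higher change in endothelium, with differences of -1.30 ± 0.22 (adjusted p = 0.000192) and -0.74 ± 0.15 (adjusted p = 0.000691). Lpl, at 0.20 ± 0.36, did not pass (adjusted p = 0.701).

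Of the 7 genes 2 were called higher and 2 lower in this difference, against 47.8% of tested genes (17.5% higher and 30.3% lower). Higher calls made up 36.6% of all calls as deposited and 50.8% after trimmed-mean scaling. None of the 4 calls was kept by limma when the first cultures were added to the fit, where none of the 7 reached an unadjusted p under 0.05 either.

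**Figure D4:**
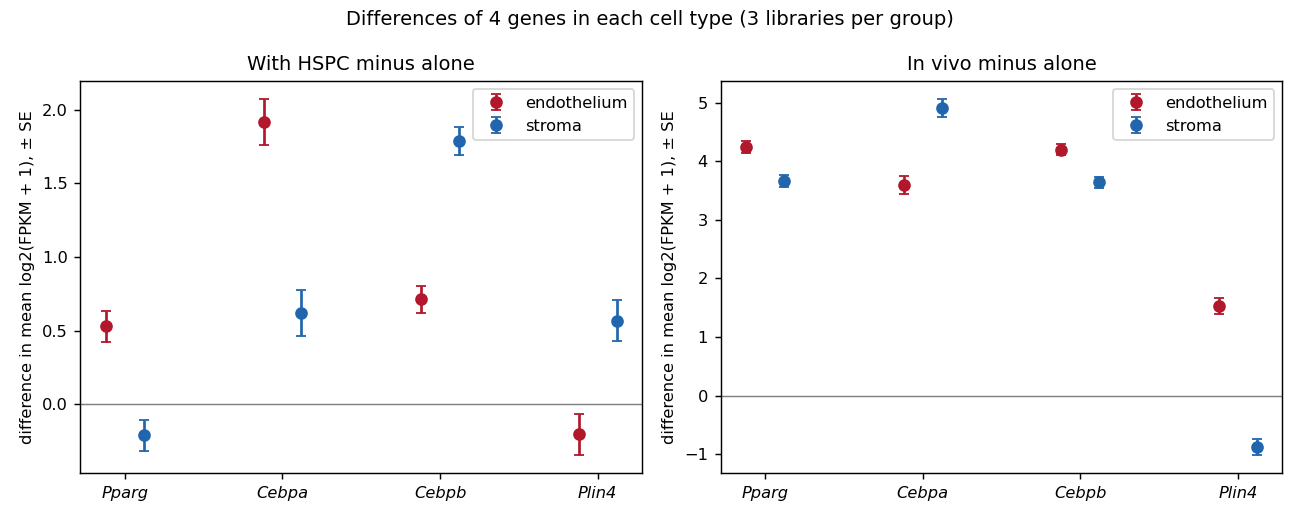
Differences in mean log2(FPKM + 1), ± SE (vertical axes), for 4 genes (horizontal axis) with HSPC minus alone (left) and in vivo minus alone (right); red points are endothelium and blue points stroma, from 3 libraries per group. Cebpb rises more in stroma with HSPC and Cebpa more in endothelium, and Plin4, listed at 0 in endothelium with HSPC, moves up in endothelium and down in stroma in vivo.

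Stroma and endothelium of the co-culture series differed in the regulators from the start. Pparg was lower in stroma alone than in endothelium alone by -2.37 ± 0.10 (adjusted p = 3.24e-12), whereas Cebpa, Cebpb and Plin4 were higher in stroma by 2.62 ± 0.16, 3.27 ± 0.09 and 3.06 ± 0.14 (adjusted p of 1.76e-10 or less). The libraries of these 4 genes did not overlap between the cell types in either state. With HSPC the differences were -3.11 ± 0.10 for Pparg, 1.32 ± 0.16 for Cebpa and 4.34 ± 0.09 for Cebpb, while Plin4 was listed at 0 in endothelium with HSPC and at 11.0 or more in stroma (adjusted p = 3.08e-13). In the fit with the first cultures the call of Cebpa with HSPC was lost (adjusted p = 0.0526, in a range of 1.89e-07 to 0.0526). In the 18-library fit 3 of 7 were called higher in stroma and 1 lower in both states, against 76.2% of genes called alone (37.9% higher and 38.3% lower) and 77.7% with HSPC (35.2% and 42.5%), shares at which most genes are called.

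Lpl was near 0 in both cell types of the co-culture series and its sign was not stable. It differed by -0.15 ± 0.25 alone (adjusted p = 0.635) and by 0.05 ± 0.25 with HSPC (adjusted p = 0.904). With HSPC the sign turned at a pseudocount of 0.1, under quantile normalization and without stroma replicate 2.

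In vivo the set divided between the cell types: endothelium held more Pparg and Cfd, and stroma more Cebpa, Cebpb, Lpl, Plin4 and Plin1. Pparg read 750.02, 777 and 763 FPKM in endothelium and 106, 86.6 and 102 in stroma. Every endothelial library was above every stromal one, with stroma minus endothelium at -2.95 ± 0.10 (limma adjusted p = 1.76e-13).

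The C/EBP genes went the other way. Cebpa read 28.1, 32.7 and 37.7 FPKM in endothelium and 532, 471 and 535 in stroma, a difference of 3.93 ± 0.16 (adjusted p = 8.32e-13). Cebpb read 102, 121 and 126 in endothelium and 823, 805 and 673 in stroma, a difference of 2.71 ± 0.09 (adjusted p = 1.34e-13). Neither overlapped between the groups.

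Lpl was high in both cell types in vivo, at 398, 298 and 378 FPKM in endothelium and 722, 651 and 752 in stroma. Stroma was higher in all 3 libraries, by 0.99 ± 0.25 (adjusted p = 0.00204). At a pseudocount of 0.1, and in the fit with the first cultures, the call was lost (adjusted p = 0.252 and 0.355, in a range of 0.000221 to 0.355).

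Cfd, the adipsin gene, read 312, 232 and 231 FPKM in endothelium and 1.33, 1.43 and 0 in stroma. No test is given for it, because it passed the filter on low values only through the 3 endothelial libraries in vivo and so had to differ. The droplet coats were low in both. Plin4 read 2.28, 2.07 and 2.68 in endothelium and 4.59, 3.25 and 5.08 in stroma (0.65 ± 0.14, adjusted p = 0.000499, lost under quantile normalization at adjusted p = 0.677 in a range of 7.05e-05 to 0.677). Plin1 was listed at 0 in endothelium and read 1.34, 1.78 and 1.25 in stroma. Plin1 entered the test only through these 3 stromal libraries, so it had to differ.

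Leaving out Plin1 and Cfd, 4 of the other 5 genes were called higher in stroma in vivo and 1 lower, against 77.2% of tested genes called (36.6% higher and 40.6% lower). Their median was 0.99 beside -0.01 over all tested genes. Of these 5, Pparg, Cebpa and Cebpb stayed called in the fit with the first cultures.

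Genes around the set were also divided in vivo. Of 10 uptake genes 2 were higher and 8 lower in stroma. Endothelium held Fabp4 at 28930.3 ± 2869 FPKM, Cd36 at 3139 ± 398 and Gpihbp1 at 2459 ± 219, against 119.7 ± 23.2, 171 ± 32.9 and 0 in stroma. Some droplet genes followed. The lipase gene Lipe was at 178 ± 21.8 in endothelium and 11.2 ± 0.763 in stroma, and Pnpla2, the first lipase of triglyceride breakdown, at 288 ± 27.9 and 40.3 ± 1.41. The perilipin gene Plin2 was at 423 ± 55.0 and 88.8 ± 6.95. Of 12 tested droplet genes 5 were higher and 6 lower in stroma.

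Secreted genes were divided in vivo. Adipoq read 21.8 ± 10.6 FPKM in endothelium and 2698 ± 204 in stroma, and of 5 tested genes of the mature fat cell 3 were higher and 2 lower in stroma. C3, the central component of the complement pathway in which Cfd acts, read 6.71 ± 3.16 in endothelium and 700.2 ± 103 in stroma. Of 16 regulators 12 were higher and 4 lower in stroma, with Ebf3 at 78.2 ± 9.46 and 1397 ± 93.5, and of 7 fatty acid synthesis genes 5 were higher and 1 lower, with Scd1 at 10.5 ± 1.51 and 333.5 ± 126.

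Markers of other cells differed between the in vivo groups. Red cell markers summed to 37009.8 to 44769 FPKM in stroma and 664 to 1299 in endothelium, and granulocyte markers to 1542 to 3335 and 248 to 341. Single blood cell markers were divided. Of 8 granulocyte markers 5 were called higher and 3 lower in stroma, beside 36.6% and 40.6% of all tested genes. Of 6 general blood cell markers 2 were higher and 2 lower, and of 5 tested macrophage markers 1 was higher and 3 lower. Osteoblast markers, 6 in all, summed to 45929 to 62244 in stroma and 279.9 to 353 in endothelium. The part of these markers in the differences of the 7 genes was not tested. Mesenchymal markers summed to 105 to 251 in endothelium and to 59831 to 87033 in stroma, and endothelial markers to 22.5 to 31.0 in stroma. The 7 markers of Lepr-positive stroma summed to 5312 to 6815 in endothelium and to 80568 to 91934 in stroma, with Lepr at 47.7 to 69.6 in endothelium. These markers were not confined to stroma: they summed to 804 to 4150 in cultured endothelium and to 1072 to 2121 in cultured stroma. Their part in the levels of Lpl and the other genes in endothelium in vivo was not tested.

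**Figure D5:**
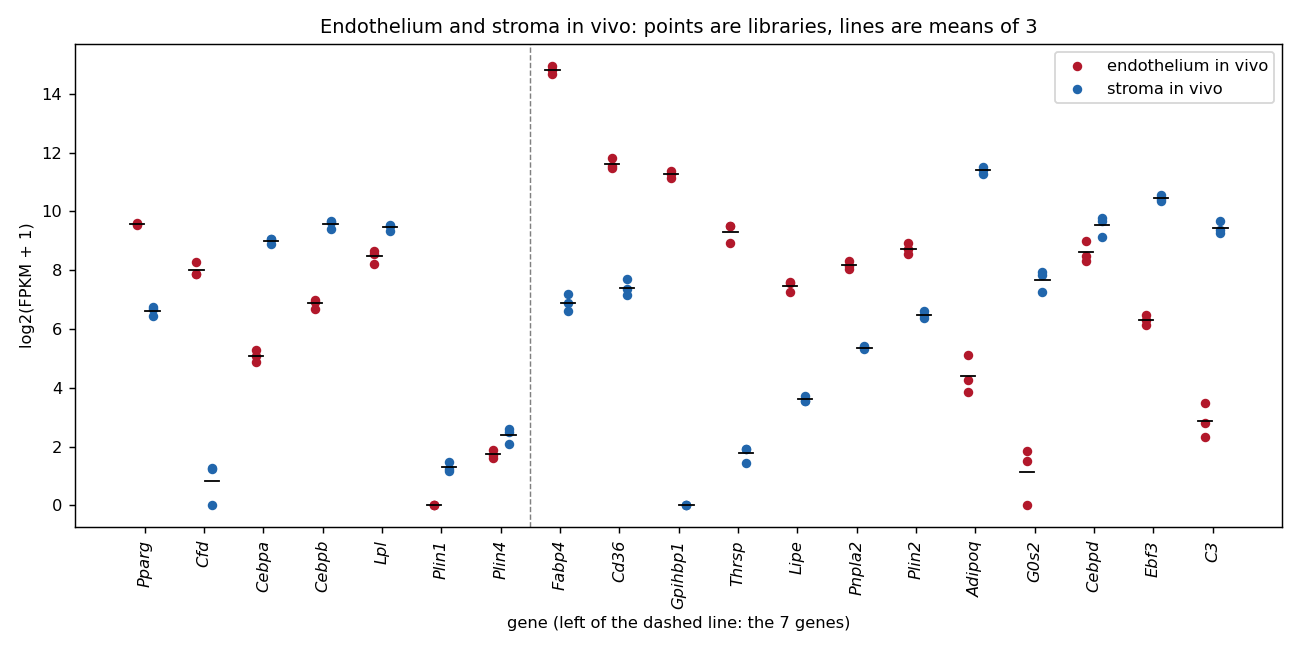
Levels in vivo as log2(FPKM + 1) (vertical axis) for the 7 genes, left of the dashed line, and other fat cell genes on the right (horizontal axis); points are libraries of endothelium (red) and stroma (blue), lines are means of 3. Pparg, Cfd and the uptake genes lie higher in endothelium, and Cebpa, Cebpb, Lpl and Adipoq higher in stroma.

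Against the cells kept alone in the co-culture series, most of the set was higher in vivo in both cell types. In stroma Pparg was higher by 3.66 ± 0.10 (limma adjusted p = 1.83e-14), Cebpa by 4.91 ± 0.16 and Cebpb by 3.64 ± 0.09. Plin4 alone went down, from 8.29 to 8.79 FPKM alone to 3.25 to 5.08 in vivo, by -0.87 ± 0.14 (adjusted p = 2.86e-05). Lpl, Cfd and Plin1 were listed at 0 in stroma alone, so no fold is given for them. Lpl and Cfd passed the test (adjusted p = 8.71e-15 and 0.00419), no test is given for Plin1, which passed the filter only through stroma in vivo, and the call of Cfd was lost under quantile normalization (adjusted p = 0.276, in a range of 1.04e-07 to 0.579).

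Leaving out Plin1, 5 of the other 6 genes were called higher and 1 lower in stroma in vivo, where 79.7% of tested genes were called (34.2% higher and 45.5% lower). Their median was 3.65, beside -0.11 over all tested genes, a value that trimmed-mean scaling moved to 0.03, with higher calls going from 42.9% to 53.3% of all calls. In the fit with the first cultures 4 of these 6 stayed called.

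Endothelium in vivo held more of 6 genes than endothelium alone, while Plin1 was listed at 0 in both. Pparg was higher by 4.24 ± 0.10 (adjusted p = 3.52e-15), Cebpa by 3.59 ± 0.16, Cebpb by 4.20 ± 0.09 and Plin4 by 1.53 ± 0.14 (adjusted p = 4.60e-08). Lpl went from at most 0.36 FPKM to at least 298 (8.33 ± 0.25, adjusted p = 4.79e-14). Cfd, listed at 0 alone, read at least 231 in vivo, the libraries through which it passed the filter, so no test is given. Leaving it out, 5 of the other 6 were called higher and none lower, where the background was 77.5% of genes called (37.3% higher and 40.2% lower), and their median was 3.90 beside 0.00 over all tested genes.

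Markers of other cells were also higher in vivo than in the cells alone. In stroma, red cell markers went from 0 to 37009.8 or more FPKM in sum, granulocyte markers from 0 to 1542 or more, general blood cell markers from at most 0.88 to 87.7 or more, and osteoblast markers from 1747 to 1861 alone to 45929 or more. In endothelium, red cell markers went from 0 to 664 or more, granulocyte markers from 48.1 to 54.8 alone to 248 to 341, general blood cell markers from at most 3.42 to 42.3 or more, and mesenchymal markers from 5.94 to 21.8 alone to 105 to 251. The part of these markers in the higher levels of the 7 genes was not tested.

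The rises in vivo differed between the cell types. Plin4 moved in opposite directions, a difference of -2.40 ± 0.20 (limma adjusted p = 1.62e-08). Cebpa rose more in stroma, by 1.32 ± 0.22 (adjusted p = 5.25e-05), and Pparg and Cebpb more in endothelium, with -0.58 ± 0.15 (adjusted p = 0.00202) and -0.56 ± 0.13 (adjusted p = 0.00122). These last calls were lost under quantile normalization (adjusted p = 0.0805 for Pparg in a range of 0.000968 to 0.610, and 0.665 for Cebpb in a range of 0.000190 to 0.665). Leaving out Plin1 and Cfd, 2 of the other 5 genes were called higher and 3 lower, against 75.4% of tested genes (35.3% and 40.1%), and of these Plin4 stayed called in the fit with the first cultures.

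Other pathway genes followed the same settings in part. Against the cells alone, 12 of 16 regulators were higher and 1 lower in stroma in vivo, and 11 higher and 4 lower in endothelium. Cebpd, an early regulator, went from 20.2 ± 2.83 to 752 ± 168 FPKM in stroma and from 12.1 ± 1.51 to 396.5 ± 101 in endothelium. Fatty acid synthesis genes went the other way, with 6 of 7 lower and 1 higher in stroma and 7 of 7 lower in endothelium. There Fasn, fatty acid synthase, went from 408 ± 26.9 to 9.99 ± 1.42. Of 12 tested droplet genes 3 were higher and 8 lower in stroma, beside 34.2% and 45.5% of all tested genes. In endothelium 7 of these were higher and 3 lower, beside 37.3% and 40.2%. Inhibitors were divided in stroma, with 4 of 10 higher and 4 lower in vivo, and in endothelium 6 were higher and 0 lower. Among those lower in stroma, Dlk1 went from 13.5 ± 1.27 to 0.107 ± 0.185 FPKM.

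Ordered by mean log2(FPKM + 1), Pparg was highest in endothelium in vivo (9.58) and then in cultured stroma (6.90), whose libraries overlapped those of stroma in vivo (6.63). Cebpa was highest in stroma in vivo (9.0), followed by cultured stroma (6.96), which overlapped endothelium in vivo (5.07). Cebpb was highest in stroma in vivo (9.58), then stroma with HSPC (7.73) and endothelium in vivo (6.87), with no overlap between these neighbours. Plin4 and Plin1 were highest in cultured stroma, at 5.94 and 3.70, and Plin1 there overlapped stroma in vivo (1.29). Cfd was highest in endothelium in vivo (8.0) and overlapped cultured stroma (5.07). Lpl ran from stroma in vivo (9.47) to endothelium in vivo (8.48), which overlapped cultured stroma (6.89). For all genes but Cebpb the means of cultured stroma join replicates that stood apart, the difference that chose the genes. Their SD there was 3.30 for Plin1, 4.45 for Cfd and 2.97 for Lpl, so the place of cultured stroma in these orders is loose.

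Over the 24 libraries the 7 genes did not follow each other closely. Given as a description over libraries that share groups, Pearson's r was 0.818 between Cebpa and Cebpb, 0.798 between Cebpa and Lpl, 0.758 between Pparg and Cfd, 0.755 between Pparg and Lpl, and 0.681 between Plin1 and Plin4, but 0.339 between Pparg and Cebpa and -0.08 between Pparg and Plin4. Without the 3 libraries of cultured stroma, Plin1 and Plin4 came to 0.192 and Cebpa and Cebpb to 0.881.

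Genes with the most similar profile to the mean of the 7 over 24 libraries were Xdh (r = 0.971), which encodes xanthine dehydrogenase, Mmd (0.947), Astn2 (0.937), Nr1h3 (0.937), which encodes the liver X receptor alpha, Pyroxd2 (0.930), Ppp1r12b (0.928), Aldh1l1 (0.925), Lacc1 (0.924), Trpv2 (0.916) and Cygb (0.916). Closest to each gene were Fabp4 for Pparg (0.961), Meis3 for Cebpa (0.983), Cp for Cebpb (0.955), Ccl11 for Plin1 (0.978), Ank3 for Plin4 (0.981), Tmigd1 for Cfd (0.989) and Gpr81, a lactate receptor of fat cells, for Lpl (0.973).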

How the data were processed

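PolyA RNA of 24 libraries, in 8 groups of 3 read from the titles, was measured by paired-end sequencing. The deposited FPKM values, 1 per gene symbol, come from the authors, whose processing notes name TopHat, Cufflinks and mm9 without versions. Library totals differ, and any further scaling is not given in the sources used here. Depth is unknown, and the spread between 3 libraries is the only error.

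Values were taken as deposited. In R 4.3.3, limma 3.58.1 (lmFit, contrasts.fit, eBayes with trend) was fitted on log2(FPKM + 1) to 18 libraries of 6 groups, leaving out the 6 first-culture libraries, for 15174 genes that reached an FPKM of 1 in 3 or more libraries. From it 9 two-sided comparisons were drawn, with Benjamini-Hochberg adjusted p under 0.05 called. This scale understates changes of low genes. All 7 members passed the filter, Plin1 only through stroma in vivo and Cfd only through endothelium in vivo, so each is left out of counts and tests of comparisons with that group. On simulated data the script was tested before use.

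The members, 8 pathway lists (82 genes) and 9 marker lists (58 genes) were chosen with earlier results of these data known. Genes were named by a rule: all members, up to 4 called genes per list and comparison with the largest difference and no overlap, further list members to describe a list, and the genes most alike in profile (among genes reaching an FPKM of 5 in 3 or more libraries, without clone names or genes of microRNAs, small nucleolar RNAs and histones). Marker lists are given as summed levels beside the comparisons, and brown fat markers summed to at most 30.3 FPKM in any library. Alternatives changed the pseudocount (0.1), the filter (none, or an FPKM of 5), the scaling (trimmed mean with trims of 0.3 and 0.05, or quantiles), the libraries (the compared groups alone, all 24, or 1 left out at a time) and the model (group weights, or a block for the replicate number). Figures used Python 3.11.15 and matplotlib 3.10.9. Promoters came from RefSeq tables (GRCm38.p6). Reads, counts and isoforms were not used here, and the counts of 1 pathway list are not reported here.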

Additional observations from a re-analysis of the deposited data

Results flagged for a closer look

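The effect of HSPC differed between stroma and endothelium for 4 of the 7 genes by the interaction term of limma. Cebpb (1.08 ± 0.13, adjusted p = 8.50e-06) and Plin4 (0.77 ± 0.20, adjusted p = 0.00461) changed more in stroma, and Cebpa (-1.30 ± 0.22, adjusted p = 0.000192) and Pparg (-0.74 ± 0.15, adjusted p = 0.000691) more in endothelium. All 3 libraries of each cell type moved with the group for Cebpa and Cebpb.

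The difference between in vivo and alone also differed between the cell types. It was larger in stroma for Cebpa (1.32 ± 0.22, adjusted p = 5.25e-05) and larger in endothelium for Pparg (-0.58 ± 0.15, adjusted p = 0.00202) and Cebpb (-0.56 ± 0.13, adjusted p = 0.00122), while Plin4 moved in opposite directions (-2.40 ± 0.20, adjusted p = 1.62e-08). For Cfd (-7.17 ± 0.33), Plin1 (1.29 ± 0.11) and Lpl (1.14 ± 0.36, adjusted p = 0.00889) at least 1 of the 4 groups was listed at 0 throughout. These sizes therefore depend on the pseudocount and are no folds. Lpl lost its call at a pseudocount of 0.1 (adjusted p = 0.162, in a range of 0.000171 to 0.464). Plin1 and Cfd passed the filter on low values only through 1 of the groups compared and so had to differ, and no test is given for them.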

How the results depend on the processing

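Counts of all genes called stayed within 1.5 times in 78 of 81 cases, and in 66 of 66 with a library left out. Counts of the 7 genes called did so in 75 of 81 and 66 of 66. The exceptions came from fitting all 24 libraries: 3591, 1852 and 2276 genes were called for HSPC in stroma, in endothelium and for their difference, against 7910, 5989 and 7256. Of the 7 genes, that fit called 1 for HSPC in stroma, 1 in endothelium, 0 for their difference (0 at an unadjusted p under 0.05, limma), 4 for stroma against endothelium in vivo, 4 for stroma in vivo against alone and 2 for the in vivo difference, against 4, 3, 4, 7, 7 and 7 (Plin1 and Cfd included, which in vivo had to differ). The replicates of the first cultures are wider, and they share the estimate of spread in that fit.

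Lpl reversed for stroma against endothelium with HSPC at a pseudocount of 0.1 (-0.44) and under quantile normalization (-0.11), and the cause was not tested. With a library left out it ran from -0.36 to 0.37, and the difference of HSPC effects from -0.21 to 0.52. Of 458 values for single genes 423 kept direction and call, and of 375 with a library left out 367 did. Plin1 falls under the filter when a library of stroma in vivo is left out, or at a filter of 5, and then has no value. At a pseudocount of 0.1 Plin4 lost its call for HSPC in stroma (adjusted p = 0.173, in a range of 0.000947 to 0.361).

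Replicate numbers are shared by the groups, but deviations of same-numbered libraries correlated at 0.123 at most, and 2 or 3 of 6 libraries correlated best with their own number. With the replicate number as a block, 7998 genes and 3 members were called for HSPC in stroma, where Lpl was lost (0.64, adjusted p = 0.0593). No other call of a member changed under the block. Trimmed-mean scaling moved group levels by -0.12 to 0.19 and quantile normalization by -0.94 to 0.44. Depth, which is unknown, limits all values near 0.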
